A study of Mus musculus with 24 samples.

Results

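The Popeye domain family comprises Bves (also called Popdc1), Popdc2 and Popdc3 in the mouse, and its transcripts were followed here through 4 tissues of *Rap1* knockin (KI) and wild-type (WT) females. The members were found by the RefSeq accession of each array probe. The 3 genes, of 21368 with a symbol on the array, were each measured by 1 probe, 3 of 55681 probes in all. The family was chosen by the values of Bves, which after quantile normalization was the 1 gene whose difference between genotypes varied between tissues past the threshold. Its values in KI against WT mice are therefore given as a description without a test, and those of Popdc2 and Popdc3, which the choice did not use, were tested.

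The KI mice carry the I312R point mutation in *Rap1* (gene symbol Terf2ip), which was introduced with CRISPR/Cas9 in a line crossed back to C57BL/6N mice 4 times. They are labelled as mutant and described by the study as homozygous, with WT littermates as controls. The mutation replaces a residue that RAP1, a telomere protein that also acts in transcription, needs to bind TRF2. The groups were liver, brain, heart and skeletal muscle of 3 KI mice (A, B and C) and of 3 WT mice (D, E and F), all untreated females and each giving all 4 tissues, hence 24 arrays in 8 groups of 3. Mice C and F were aged 14 months, against 15 months for A, B, D and E. The sources name no heart chamber and no particular muscle.

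Popeye proteins are membrane proteins whose Popeye domain faces the cytoplasm and binds cAMP, the second messenger of adrenergic signalling. They are best known from heart and skeletal muscle, where they bind the potassium channel TREK-1 and caveolin 3. Loss of Bves or Popdc2 in mice slows the heart under stress, and human variants of BVES and POPDC3 cause forms of limb-girdle muscular dystrophy.

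Of the 3 genes, Popdc2 had a promoter in the reference table used here (RefSeq, GRCm38.p6). It is shown because no promoter of Bves or Popdc3 was available there. The window covers the 250 bases before the gene start on the plus strand, chr16:38361940-38362189, and its last 29 bases lie inside the annotated gene, which has more than 1 start. Capitals mark the matches found on either strand to the E-box CANNTG, the M-CAT motif CATTCC, the motif GATA bound by GATA factors, the CRE half-site TGACG and the MEF2 and CArG motifs.
Popdc2 promoter: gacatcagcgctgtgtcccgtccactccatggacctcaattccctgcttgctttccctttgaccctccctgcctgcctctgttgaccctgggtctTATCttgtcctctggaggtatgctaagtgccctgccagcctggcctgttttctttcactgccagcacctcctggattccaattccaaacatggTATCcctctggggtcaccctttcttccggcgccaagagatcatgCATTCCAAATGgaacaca
The window held 1 M-CAT motif, which muscle genes often carry, starting 18 bases before the start, and 1 E-box, CAAATG, starting 13 bases before it and sharing a base with the M-CAT match. GATA matched on the minus strand 155 and 62 bases before the start. CATTCC occurred in 12.6% of 32851 promoter windows of this length, CANNTG in 66.2% and GATA in 53.6%. The CRE half-site, present in 17.8% of windows, MEF2, in 2.92%, and CArG, in 1.47%, had no match in these letters.

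Levels below are log2 values of the processed array signal after subtraction of the 75th percentile of that array, so a probe at 0 was brighter than 75% of the probes, and 1 unit up means the signal multiplied by 2. Because a probe's brightness depends on its sequence, levels were compared between samples and never between the 3 genes. On the liver arrays hepatocyte markers were well above background (8 of 8 on every array), as were 6 of 6 neuronal markers in brain, 8 of 8 cardiomyocyte markers in heart and 8 of 8 skeletal muscle fibre markers in muscle. Such counts did not separate the tissues, since each brain also had 6 or 7 of 8 markers of either muscle list above background. The summed levels of these lists were highest in their own tissue. Glial markers, however, summed higher in heart (6.42 to 6.99) and muscle (6.55 to 7.41) than in brain (5.82 to 6.37). The neuronal marker Snap25 was at 5.78 to 6.81 in heart and 6.33 to 6.69 in brain. On 3 arrays, all of KI mice, a transcript of a further tissue stood out from the other arrays of the tissue. The liver array of KI mouse C had a level of 1.45 for Myh4, a skeletal muscle myosin, against -7.50 to -5.64 on the other livers. The muscle array of KI mouse B had a level of 2.30 for Wfdc18, a gene of secretory epithelium, against -6.43 to -6.13 in the other muscles. The brain array of KI mouse C had a level of 6.53 for Alb, the liver product albumin, against -7.11 to -0.82 in the other brains. The heart array of KI mouse B had the highest summed level of adipocyte markers (5.23, against 0.53 to 3.22 in the other hearts), smooth muscle markers (7.10) and fibroblast markers (8.22) and the lowest of cardiomyocyte markers (11.40, against 11.53 to 11.79). Transcripts of the atria also varied between hearts, with Myl7 from -3.26 to 7.44 and Sln from -6.62 to 8.09.

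All 3 Popeye transcripts were far more abundant in both striated muscles than in brain or liver, and the muscles differed in which member they favoured. Popdc2 was higher in heart than in skeletal muscle. Relative to the other genes on the array, Popdc3 and, by a smaller amount, Bves were higher in skeletal muscle. In bulk tissue a lower share of expressing cells and less RNA per cell cannot be told apart.

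Bves, whose protein was first described in heart and blood vessel and is found at cell contacts, reached levels of 4.29, 4.27 and 4.53 in the hearts of WT mice D, E and F and 4.11, 4.02 and 4.45 in those of KI mice A, B and C. In muscle the levels were 4.998, 5.11 and 4.95 in WT and 5.40, 4.67 and 4.82 in KI mice, so no muscle array lay below any heart array. The brains gave -2.20, -3.22 and -2.65 in WT and -2.75, -2.98 and -2.46 in KI mice, all well above background. The ordering from muscle to heart to brain was without overlap between tissues. In liver the Bves probe was not well above background on any of the 6 arrays.

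**Figure D1:**
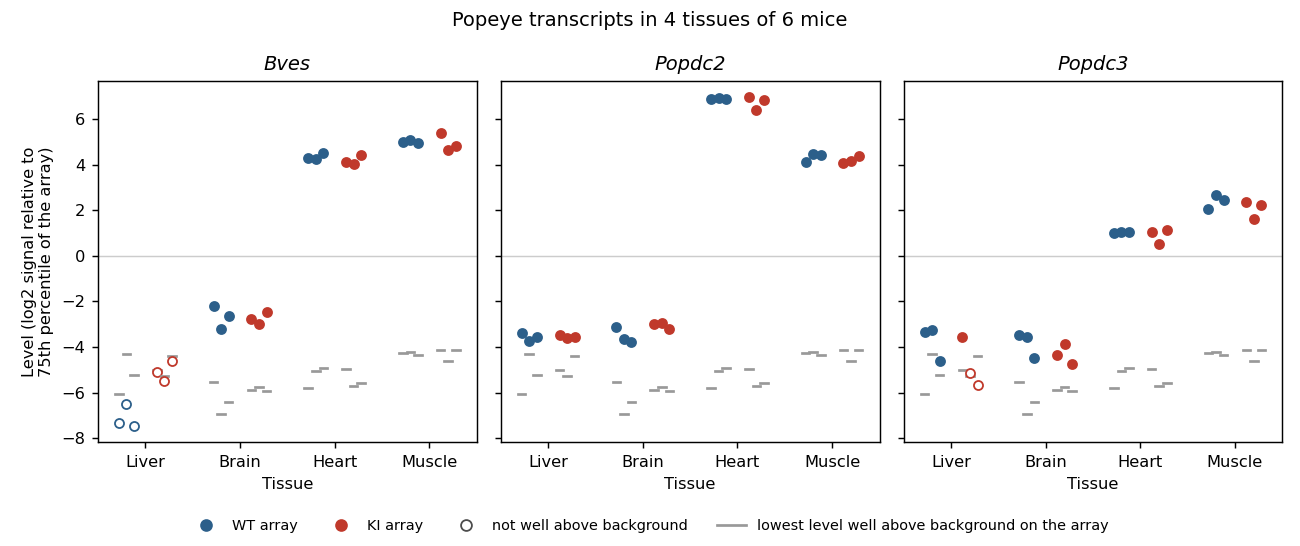
Level of each Popeye transcript (vertical axis, log2, with the array's 75th percentile at 0) in 4 tissues, 1 point per array, WT in blue and KI in red; open points were not well above background and grey dashes mark the lowest level that was well above background on that array. Heart and muscle lie above 0 for all 3 genes, brain and liver lie below -2, and Bves is below background on all 6 liver arrays.

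In WT mice Bves was higher in heart than in brain by 7.05 (SE 0.28, limma adjusted p = 5.75e-09) and higher in muscle than in brain by 7.71 (SE 0.28, limma adjusted p = 2.52e-09). The KI mice, which are different animals, gave 6.92 and 7.69. Against liver the difference has only an approximate lower bound. For it each liver value was replaced by the lowest level well above background of any probe on the same array. This level is not a detection limit of the Bves probe itself. By this bound Bves was at least 755-fold higher in heart, at least 1187-fold higher in muscle and at least 5.68-fold higher in brain than in liver of WT mice. The bounds in KI mice were 541-fold, 923-fold and 4.47-fold.

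Popdc2, which together with Bves keeps the sinus node working under stress, had levels of 6.91, 6.94 and 6.88 in the WT hearts and 6.96, 6.41 and 6.84 in the KI hearts. In muscle it had 4.11, 4.48 and 4.46 in WT and 4.09, 4.16 and 4.40 in KI mice. Every heart array was thus above every muscle array, by more than the spread within either tissue. Brain gave -3.12, -3.63 and -3.76 in WT and -2.99, -2.93 and -3.20 in KI mice. Liver gave -3.40, -3.72 and -3.58 in WT and -3.49, -3.61 and -3.54 in KI mice. All 24 arrays had Popdc2 well above background, and its brain and liver values overlapped.

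Between tissues of WT mice the Popdc2 level was higher in heart than in brain by 10.41 (SE 0.18, limma adjusted p = 6.69e-11) and than in liver by 10.48 (SE 0.18, limma adjusted p = 9.11e-12). Muscle exceeded brain by 7.85 and liver by 7.92. In KI mice the same 4 differences were 9.78, 10.29, 7.26 and 7.77. Brain and liver were not separated in WT mice, with a difference of 0.06 (95% interval -0.33 to 0.46, limma adjusted p = 0.75). In KI mice brain was higher by 0.51 (limma adjusted p = 0.0194, with 35.0% of genes called higher in brain in KI and 37.9% in WT mice), a call that was lost when any 1 of the 3 KI mice was left out (0.42 to 0.59, limma adjusted p = 0.0745 to 0.0921), and normexp background correction moved the WT difference to -0.38. The brain and liver order of Popdc2 is therefore given without a direction.

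Popdc3, the third member and a gene of limb-girdle dystrophy in people, had levels of 0.99, 1.07 and 1.03 in the WT hearts and 1.05, 0.54 and 1.12 in the KI hearts. In muscle it reached 2.07, 2.68 and 2.47 in WT and 2.38, 1.63 and 2.26 in KI mice. Again the 2 tissues did not overlap, with muscle the higher. Brain gave -3.47, -3.57 and -4.50 in WT and -4.34, -3.87 and -4.74 in KI mice. Liver gave -3.36, -3.26 and -4.63 in WT and -3.57, -5.16 and -5.65 in KI mice, where the arrays of B and C were not well above background. Brain and liver overlapped for this gene, and their difference did not pass the threshold in WT (-0.10, 95% interval -0.93 to 0.73) or KI mice (0.48, 95% interval -0.57 to 1.53).

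Popdc3 was higher in heart than in brain by 4.88 (SE 0.37, limma adjusted p = 6.16e-07) and than in liver by 4.78 in WT mice, and by 5.22 and 5.70 in KI mice. Muscle exceeded brain by 6.25 and liver by 6.16 in WT mice and by 6.41 and 6.88 in KI mice. The KI values against liver include the 2 livers not well above background. With mouse C raised to the approximate bound used for Bves, Popdc3 was about 38.9-fold higher in heart and 88.3-fold higher in muscle than in liver. Mouse B already lay above that bound and was left as measured.

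All 3 members were thus called higher in heart than in brain, where 41.8% of 16463 genes tested were called higher in heart in WT mice (37.4% in KI). They were likewise all called higher in muscle than in brain, beside 43.0% of genes in WT and 40.7% in KI mice. Against liver, Popdc2 and Popdc3 were called higher in heart, as were 39.9% of genes in WT and 34.6% in KI mice, and in muscle, as were 41.6% and 38.5%. Calls of this kind were common on these arrays. None of these calls was lost in any of the 306 values recomputed for heart or muscle against brain or liver under alternative settings. The 306 include Bves against liver, where the liver arrays were below background. Slide 2 held 4 hearts and 4 brains, and within it heart exceeded brain by 7.22 for Bves, 10.62 for Popdc2 and 5.07 for Popdc3 in WT mice and by 6.78, 9.75 and 5.10 in KI mice. Livers shared no slide with hearts or muscles, nor brains with muscles. Heart and muscle RNA had been extracted with a kit for fibrous tissue and brain and liver RNA with another kit, so that kit and tissue cannot be told apart in these comparisons.

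The comparison of heart with skeletal muscle separated the members, and each mouse gave both tissues. Within the mouse, Popdc2 was higher in heart by 2.87, 2.24 and 2.44 in KI mice A, B and C and by 2.79, 2.46 and 2.42 in WT mice D, E and F. The mean of 2.54 ± 0.24 (SD, n = 6) corresponds to 5.81-fold, and the KI and WT mice overlapped. Popdc3 was lower in heart by -1.34, -1.09 and -1.13 in KI and by -1.08, -1.61 and -1.44 in WT mice, with a mean of -1.28 ± 0.22 (SD, n = 6), or 2.43-fold higher in muscle. Bves was lower in heart by -1.29, -0.65 and -0.37 in KI and by -0.70, -0.83 and -0.42 in WT mice, with a mean of -0.71 ± 0.33 (SD, n = 6), or 1.64-fold higher in muscle.

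Each of the 3 had the same sign in 6 of 6 mice, and an exact two-sided sign-flip permutation test over the mice gave p = 0.03125 for each, the smallest that 6 mice allow, and 0.03125 after adjustment over the 3 genes. A single direction in all 6 mice was found for 61.5% of 14652 genes, 28.6% higher in heart and 32.9% higher in muscle, so the sign alone was common on these arrays. Fitted by genotype with limma, Popdc2 differed by 2.56 in WT (SE 0.18, adjusted p = 8.36e-07) and 2.52 in KI mice (SE 0.17, adjusted p = 1.44e-06). Popdc3 differed by -1.37 in WT (SE 0.37, limma adjusted p = 0.00826) and by -1.18 in KI mice (SE 0.47, limma adjusted p = 0.0549). For Bves the values were -0.65 in WT (SE 0.28, limma adjusted p = 0.0651) and -0.77 in KI mice (SE 0.26, limma adjusted p = 0.0321). Of the genes tested in this comparison 59.3% passed in WT and 50.4% in KI mice.

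Mice C and F had heart and muscle on the same slide, and there Bves differed by -0.37 and -0.42, Popdc2 by 2.44 and 2.42 and Popdc3 by -1.13 and -1.44. The Bves call in KI mice was lost without mouse A (-0.51, limma adjusted p = 0.311) and without mouse B (-0.83, limma adjusted p = 0.0573), and the Popdc3 call in WT mice was lost without mouse E (-1.26, limma adjusted p = 0.0817). The muscle array of KI mouse B, with the Wfdc18 signal, held the lowest Bves and the lowest Popdc3 level of the 6 muscles, and without it Popdc3 passed in KI mice (-1.42, limma adjusted p = 0.0424).

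**Figure D2:**
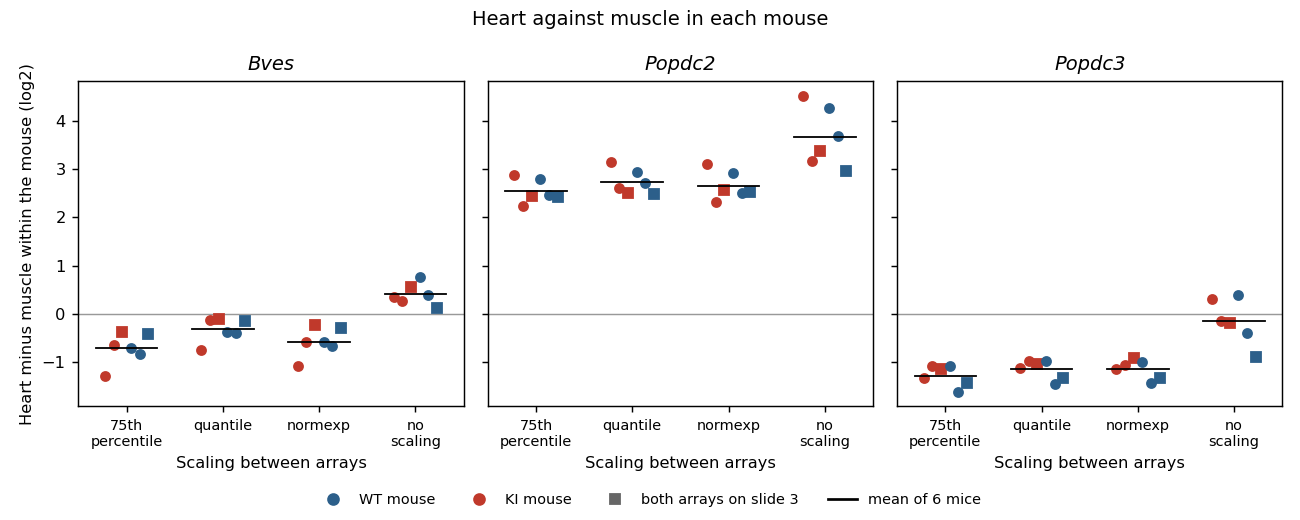
Difference between heart and muscle within each mouse (vertical axis, log2), 1 point per mouse with the mean of 6 as a line, for each Popeye gene under 4 ways of scaling the arrays; squares mark mice whose 2 arrays shared slide 3. Popdc2 is above 0 throughout, Popdc3 is below 0 in all 6 mice under the first 3 scalings, and Bves changes sign without scaling.

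The direction for Bves rested on scaling the arrays, as did a single direction in all 6 mice for Popdc3. The 75th percentile signal was 860 to 1130 on heart arrays and 312 to 593 on muscle arrays. Before scaling, the Bves signal averaged 20651 in WT and 18408 in KI hearts against 15509 in WT and 13894 in KI muscles, and its difference within the mouse was 0.41, above 0 in 6 of 6 mice. The median gene differed by 1.11 on the same unscaled values, and by -0.01 after scaling to the 75th percentile. Quantile normalization gave Bves -0.32, Popdc2 2.73 and Popdc3 -1.15, with the median gene at 0.11, and normexp gave -0.58, 2.66 and -1.15, with the median gene at -0.11. Unscaled, Popdc2 differed by 3.66 and Popdc3 by -0.15, the latter below 0 in 4 of 6 mice. Higher Bves and higher Popdc3 in muscle are thus statements relative to the other genes on the array, while higher Popdc2 in heart held with and without scaling.

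The genotype comparison asked whether the *Rap1* knockin goes with a change of these transcripts. The study also reports less RAP1 protein, and a larger part of it in the cytosol, in KI fibroblasts and brains. The comparison therefore does not isolate the loss of binding to TRF2. No test of Popdc2 or Popdc3 passed the threshold, in any tissue, nor did any other gene (0.0% called of 14073 genes in liver and likewise of 16045 in brain, 14907 in heart and 13497 in muscle). Of the 8 tests of the 2 genes 0 had an unadjusted limma p under 0.05, beside 11.7% of all liver genes, 0.785% of brain, 1.64% of heart and 0.852% of muscle genes. Bves in liver was below background in both genotypes and was not tested.

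In heart, where the family is abundant, KI minus WT was -0.17 for Popdc2 (95% interval -0.58 to 0.23) and -0.13 for Popdc3 (95% interval -0.55 to 0.30), each with a limma adjusted p of 0.971. In muscle the differences were -0.13 (95% interval -0.56 to 0.30) and -0.32 (95% interval -0.94 to 0.31). Bves differed by -0.17 (SE 0.16) in heart and -0.06 (SE 0.22) in muscle. The heart of KI mouse B, with the adipocyte signal, had the lowest value of all 3 genes, and without it the heart differences were -0.0079 for Popdc2, 0.054 for Popdc3 and -0.085 for Bves. The part of other cell types in these values was not tested. The KI and WT arrays overlapped for all 3 genes in both tissues, as did those of all but 5.03% of genes in heart and 3.54% in muscle.

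Of the 8 tests, Popdc2 in brain came nearest to an interval without 0, its KI level being higher by 0.47 (SE 0.20, 95% interval -0.0018 to 0.93, limma adjusted p = 1.00). The KI brains lay between -3.20 and -2.93 and the WT brains between -3.76 and -3.12, so that 1 WT brain reached into the KI range. The difference was 0.54 without the brain array of KI mouse C, the one with the highest albumin signal. Popdc3 differed in brain by -0.47 (95% interval -1.27 to 0.33) and Bves by -0.04 (SE 0.28), and the arrays overlapped for both, as for all but 2.86% of genes. In liver Popdc2 differed by 0.02 (95% interval -0.29 to 0.33), with overlapping arrays where 19.7% of genes tested had none.

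Popdc3 in liver was well above background on 3 of 3 WT livers and on 1 of 3 KI livers, that of mouse A, so its size there is uncertain. The measured values differed by -1.05 (SE 0.61, limma adjusted p = 0.50), the widest of the 8 tests. With KI mouse C raised to the same bound and B, already above it, left as measured, WT livers were higher by 0.63. The array of KI mouse A lay among the WT values, and the difference came down to -0.11 with normexp. A moderated F-test of whether the KI effect differed between tissues gave a limma adjusted p of 1.00 for both Popdc2 and Popdc3, with 0.0% of 17174 genes past the threshold.

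**Figure D3:**
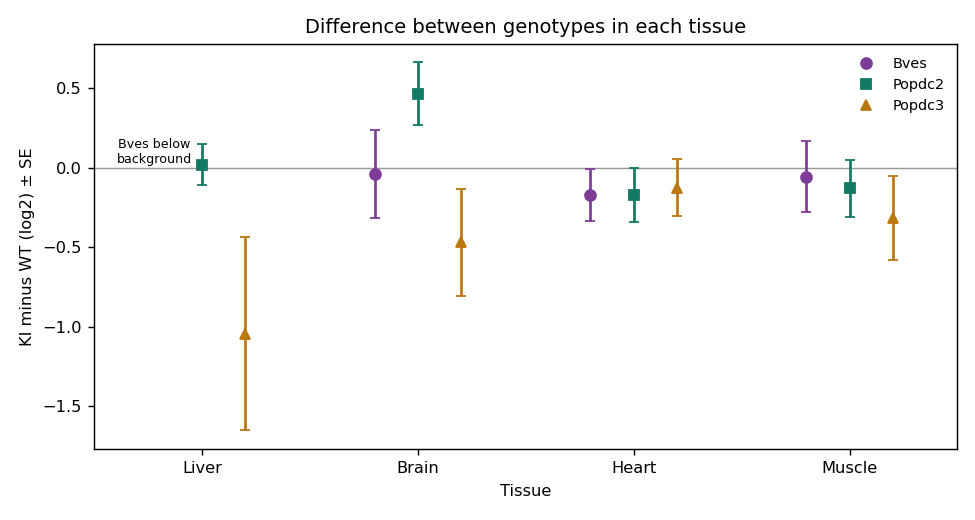
Difference between KI and WT mice (vertical axis, log2, with SE from limma, 3 arrays per genotype) for each Popeye gene in each tissue. Most points lie within 0.5 of 0, Popdc3 in liver, with 2 KI arrays not well above background, lies at -1.05 with the widest error, and Bves in liver is left out because both genotypes were below background.

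The liver values of Bves were what set it apart in the first place. They were -5.08, -5.49 and -4.62 in KI mice A, B and C and -7.32, -6.50 and -7.45 in WT mice D, E and F, so the 2 genotypes did not overlap, KI being the higher, although none was well above background. Among 4623 genes that were below background on all 6 livers, 1.19% had all KI above all WT arrays and 0.93% had the reverse, and the median gene of this kind was higher in KI by 0.27, or by 0.0173 after quantile normalization. On the unscaled scale KI livers gave signals of 18.5, 16.7 and 27.8 and WT livers of 8.40, 6.01 and 6.18, while the lowest signal well above background on these arrays ran from 19.3 to 32.6. The error that the scanner software gave each of these signals ran from 4.50 to 7.53, and for WT mice E and F it was about as large as the signal. No fold is given, since both groups were below background.

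**Figure D4:**
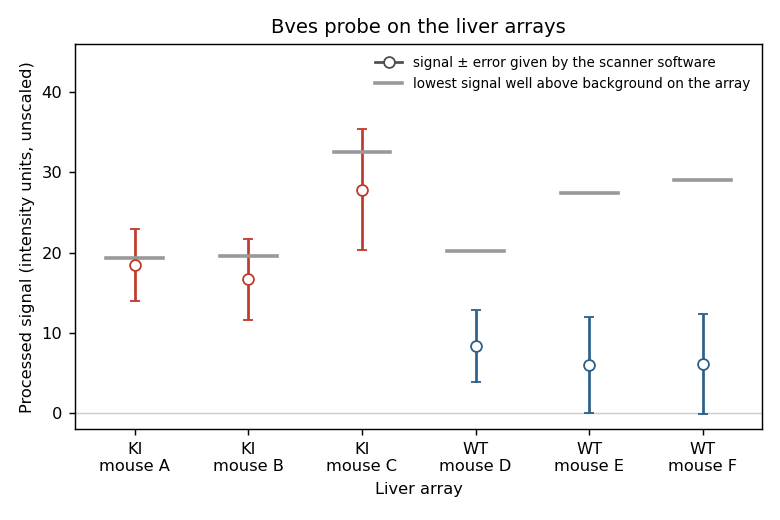
Unscaled processed signal of the Bves probe on the 6 liver arrays (vertical axis, intensity units), with the error given by the scanner software as bars and the lowest signal well above background on each array as grey lines. The 3 KI points, 16.7 to 27.8, lie above the 3 WT points, 6.01 to 8.40, and every point lies below its grey line.

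Other scalings of the same values kept the Bves order in liver, with 1 exception. These are the values that led to the choice of Bves, so they describe the order and give no separate support for it. The KI livers were above the WT livers after quantile normalization, as z-scores, in the deposited scores and without scaling. With normexp on median intensities they overlapped, since KI mouse B (-2.97) fell below WT mouse E (-2.81). The spot's median intensity minus its local background was 48.5, 49.0 and 68.0 in KI and 38.0, 42.0 and 39.5 in WT livers. The highest Bves value belonged to KI mouse C, whose liver array carried muscle transcripts. There the 8 skeletal muscle fibre markers had a summed level of 4.18, with 8 of 8 above background, against -2.29 and -2.28 in KI mice A and B, with 2 of 8 each, and -1.78 to -1.23 in WT livers, with 1 to 6 of 8. The 8 cardiomyocyte markers summed to 1.54 in mouse C, with 6 of 8 above background, against -1.72 to -0.35 on the other 5 livers, with 2 to 8 of 8. In the livers of A and B, where Myh4 and Myh1 were not above background, Bves was at -5.08 and -5.49, also not well above background. The part of these transcripts in the Bves values was not tested.

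Related genes gave a background for the family's pattern. The lists were drawn up by function, and the first held 8 published partners of Popeye proteins, among them the potassium channel gene Kcnk2, the caveolins Cav1 and Cav3 and the scaffold gene Tjp1. In WT mice 7 of the 8 were tested between heart and muscle, where 29.8% of all genes were called higher in heart and 29.4% higher in muscle. Of the 7, 2 were called higher in heart and 1 higher in muscle, with a median of -0.12 against 0.00 over all genes. These 3, named after their values were seen, were Ndrg4 (5.18), Tjp1 (1.29) and the adenylyl cyclase gene Adcy9 (-1.07). Cav3, the muscle caveolin, also chosen after its values were seen, was at 5.13 ± 0.08 in heart and 5.25 ± 0.10 in muscle (SD, n = 3 each) and did not pass.

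Genes that make, sense or degrade cAMP were called in both directions between the 2 muscles, as genes in general were. Of 10 genes for cAMP binding proteins, the kinase regulatory subunits, Epac and HCN channels, 7 were tested in WT mice and 3 were called higher in heart and 3 in muscle. Of 13 genes for adenylyl cyclases, adrenergic receptors, kinase catalytic subunits and the G protein subunit Gnas, 12 were tested, 6 higher in heart and 3 in muscle. Of 12 phosphodiesterase genes, all tested, 4 were higher in heart and 4 in muscle. Some of these genes were above background in only 1 of the tissues. Of the 6 binding genes above background on all arrays of both, 2 were higher in heart and 3 in muscle. The counts were 4 and 2 of 8 for the synthesis and signal list and 2 and 4 of 10 for phosphodiesterases. The share over all genes was 29.8% higher in heart and 29.4% higher in muscle, so calls both ways were common on these arrays.

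The 2 lists that stand for the family's disease links each leaned one way. Of 17 conduction and atrial genes 12 were tested, with 8 higher in heart, 0 higher in muscle and a median of 2.17. Of these 8, 5 were above background on all arrays of both tissues, among them the gap junction gene Gja1 and the natriuretic peptide gene Nppa, both named after their values were seen. Hcn4, Isl1 and Shox2, genes of the pacemaker, were above background on 0 of 3 WT hearts, and Gja5 did not pass (0.90, limma adjusted p = 0.0524). Of 15 limb-girdle and related dystrophy genes, all tested, 1 was higher in heart and 7 higher in muscle, with a median of -0.85. Of these 7, 6 were above background on all arrays of both tissues. Popdc2, at 2.56, lay on the side of the conduction list and Popdc3, at -1.37, on the side of the dystrophy list. Bves, at -0.65, had the sign of the dystrophy list but did not pass. Conduction and atrial genes are genes of the heart, and the dystrophy list was drawn up from genes of muscle disease. The lean of each list was thus largely set by its choice. Over all genes in WT mice, 29.8% were called higher in heart and 29.4% higher in muscle. Sharing a side with a list therefore does not link a member to conduction or to dystrophy. KI mice gave 8 and 0 for the conduction list and 0 and 7 for the dystrophy list, where 23.0% of all genes were called higher in heart and 27.4% higher in muscle. Between genotypes none of the 6 lists had a gene past the threshold in any tissue by limma, and an unadjusted p under 0.05 was found in liver alone, where 11.7% of all genes had one. There it was held by 2 of 5 partner genes tested, 2 of 7 cAMP binding, 2 of 8 cAMP synthesis and signal and 3 of 10 phosphodiesterase genes, and by 0 of 8 in each of the other lists.

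**Figure D5:**
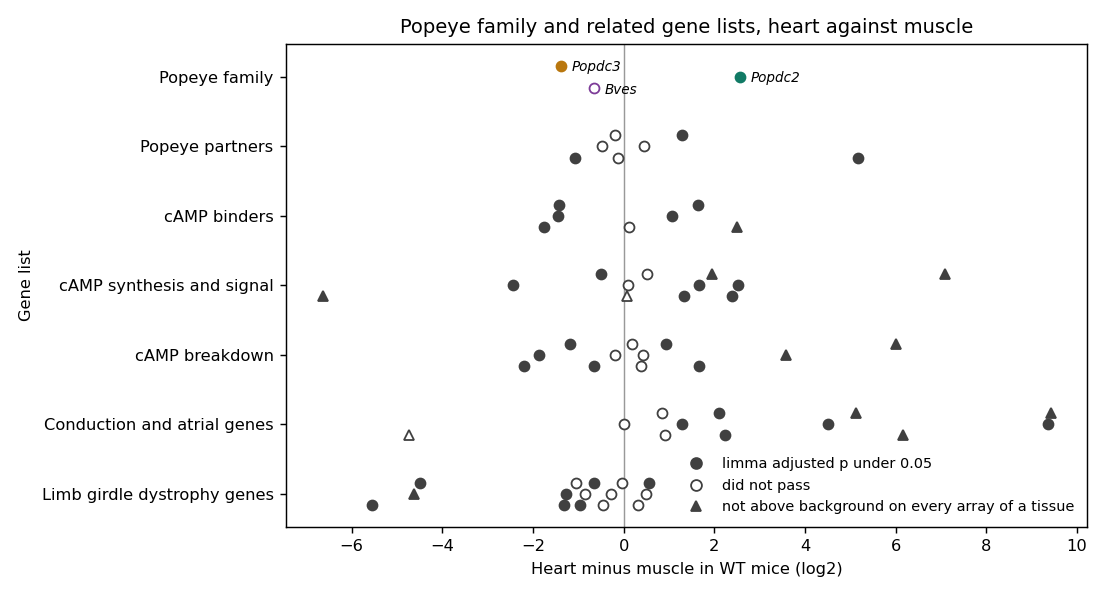
Heart minus muscle in WT mice (horizontal axis, log2) for the Popeye genes and the tested genes of 6 lists, 1 point per gene; filled points had a limma adjusted p under 0.05. Popdc2 lies at 2.56, Popdc3 at -1.37 and Bves at -0.65; triangles mark genes that were not above background on every WT heart and muscle array, whose size is uncertain.

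The genes whose levels followed each member most closely over the 24 arrays included several of muscle structure, beside others bright in all 4 tissues, such as Fastk, Clip1 and Cmss1. With Bves these were Nexn, which encodes the actin-binding Z-disc protein nexilin (Pearson r = 0.996), Obsl1 (0.994), Txlnb (0.993), Clic5 (0.993) and Tpm1, a tropomyosin of the thin filament (0.992). Nexn, for instance, had WT means of 6.72 in muscle, 6.47 in heart, 0.51 in brain and -2.05 in liver. With Popdc2 they were Itga7, the laminin receptor chain of muscle (0.994), Lpl, lipoprotein lipase (0.991), Cmss1 (0.989), Rbm20, the splicing factor of titin (0.988), and Smtn (0.987), and of these Lpl fell from 8.14 in heart to 5.80 in muscle. With Popdc3 they were Fastk (0.985), Dusp27 (0.983), Clip1 (0.979), Srl, the calcium-binding protein sarcalumenin (0.978), and Apobec2 (0.978), the last at 2.78 in heart and 4.14 in muscle. The likeness is the Pearson correlation among 17173 genes, and the 24 points share 4 tissues and 6 mice.

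The genes named above were the 5 highest of 17173 for each member, so any other gene, the other members included, correlated less by construction. The correlation over 24 arrays was 0.934 between Bves and Popdc2, 0.936 between Bves and Popdc3 and 0.923 between Popdc2 and Popdc3. The members ranked from 324 to 443 among 17173 genes in the lists of each other.

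Bves and Popdc3 are direct neighbours on chromosome 10 in the reference gene table, and Popdc2 lies on chromosome 16. The next measured gene beyond Bves, Lin28b, which encodes an RNA-binding repressor of let-7, followed another pattern, with WT levels of -1.06 ± 0.56 in brain and -3.71 ± 0.42 in heart (SD, n = 3 each) and none well above background in muscle or liver. Beside Popdc2 lie Cox17, a copper chaperone gene at -3.09 ± 0.05 in WT heart and -3.91 ± 0.13 in WT muscle (SD, n = 3 each), and Pla1a, a phospholipase gene highest in liver at 4.33 ± 0.28 in WT mice (SD, n = 3). Maats1, the second gene on the Cox17 side of Popdc2, was above background only in brain (-3.32 ± 0.30 in WT mice, SD, n = 3).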

How the data were processed

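Total RNA of each tissue was labelled with Cy3 and hybridised to 1 Agilent 1-colour mouse array per sample. The authors extracted intensities with Agilent Feature Extraction 12.0.3.1, per the file headers, and the deposited processed signal is an intensity corrected for background within the array but not scaled between arrays. Median spot and local background intensities and the scanner's error, also deposited, served the alternatives. A deposited score table of 33912 features held within-array z-scores of the log signal (largest difference 0.00507 after a linear fit) and was an alternative.

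Control spots and 121 to 347 outlier spots per array were left out, spots of a probe were averaged, and log2 values were set relative to the array's 75th percentile, which lay between 312 and 2519. Between 49.4% and 68.4% of probes per array were well above background. The number of arrays, 3 per group, limits the precision. Probes were named by RefSeq accession through a gene table of GRCm38.p6 (99.0% of 26732 curated mRNA probes matched), used for names and gene order. The array's own design predates that build.

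Genes were fitted if all 3 arrays of any group compared were well above background. Fits used lmFit and eBayes of limma 3.58.1 under R 4.3.3 (two-sided, Benjamini-Hochberg over all genes tested, threshold 0.05): the 6 arrays of a tissue for KI against WT, the 12 arrays of a genotype for tissue contrasts, and all 24 for the F-test. Intervals of 95% used limma's moderated errors. The fits were tested on simulated data. With 3 arrays against 3 the smallest exact two-sided p is 0.1, so single genes were not tested that way between genotypes. Same-numbered arrays came from the same mouse, which pairs tissues and not genotypes, and with the mouse as a block the consensus correlation was -0.0338 to -0.000587.

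The members, the lists and the cell type markers were chosen with earlier results of these data known. All member probes are named, with the 5 genes most alike each and the measured genes within 2 places on the chromosome. From the lists, the rule was to name genes past the threshold between genotypes, and no list gene passed. The list genes given with values or detection were named outside that rule, Hcn4, Isl1, Shox2, Gja5, Myl7 and Sln among them. Alternatives covered quantile and normexp (offset 50) values, z-scores, deposited scores, no filter on dim probes, all array probes, slide and mouse as blocks, a 24-array fit and leaving out single mice. The within-mouse comparison, unscaled values and leaving out single arrays were added after the data were seen. The animals were females of 14 to 15 months, and males were not analysed here.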

Additional observations from a re-analysis of the deposited data

How the results depend on the processing

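Of 899 recomputed values, 835 changed neither in direction nor in passing the threshold or, for counts, stayed within 1.5 times. The 306 values of heart or muscle against brain or liver and the 27 of Popdc2 between heart and muscle were all among these. Of 116 values of Popdc2 and Popdc3 between genotypes 0 passed the threshold (lowest limma adjusted p 0.501), and 6 changed sign: Popdc2 in liver with normexp (-0.011), z-scores (-0.0012), deposited scores (-0.0067) and without 1 mouse (A or E, range over mice -0.058 to 0.10), and Popdc3 in heart without mouse B (range -0.24 to 0.054). Between heart and muscle, Bves in KI mice no longer passed with quantile normalization (-0.32) or slide as a block (-0.51), and ranged from -0.97 to -0.51 with mice left out. Bves in WT mice passed as z-scores (-0.19) and deposited scores (-0.18), was -0.49 within slide 3, and ranged from -0.77 to -0.56, passing without mouse E (limma adjusted p = 0.0486). Within the mouse and without scaling, Bves turned to 0.41 and Popdc3 fell to -0.15. Popdc3 in KI mice passed with normexp (-1.04), in the 24-array fit (-1.18) and without the muscle of mouse B (range -1.42 to -1.11). In WT mice it no longer passed with slide as a block (-1.37, limma adjusted p = 0.0803) or without mouse E (range -1.52 to -1.26). Between brain and liver, Popdc2 in KI mice no longer passed with quantile normalization (0.28), normexp (0.042) or slide as a block (0.56), nor without any 1 mouse (range 0.42 to 0.59). In WT mice it was -0.021 with quantile normalization, -0.38 with normexp, 0.45 within slide 1 and -0.042 to 0.19 with mice left out. Popdc3 was -0.52 in KI mice with normexp, and in WT mice 0.075 as z-scores, 0.28 with slide as a block and within slide 1, and -0.21 to 0.0084 with mice left out. The cause of these changes was not tested.

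Counts of genes past the threshold rose where all array probes were tested, because more features entered: in WT mice to 15698 between heart and muscle, 24793 between heart and brain, 21833 between heart and liver, 25321 between muscle and brain, 22178 between muscle and liver and 26255 between brain and liver, and in KI mice to 13670, 23303, 20585, 23709, 20682 and 24794 in the same order. With slide as a block they fell to 5804 between heart and muscle and 7086 between muscle and liver in WT mice, and to 3277 between heart and muscle, 6096 between heart and liver, 6864 between muscle and brain and 4920 between muscle and liver in KI mice. The KI count between heart and muscle was 4621 without mouse A, and 8117 without the muscle array of mouse B. Between genotypes the 24-array fit called 3 genes in liver, and 3 with the replicate block. Leaving out mice called 0 to 1 in heart (1 without mouse C) and 0 to 4 in muscle (4 without mouse A). The F-test called 1 gene with quantile normalization, 1 as z-scores and 0 to 1 with mice left out (1 without B, C or D). The replicate block, with the mouse pairing tissues, changed no call of a member. A second probe for a member could not be tried, since each has 1. Depth of signal limits Bves in liver, where no array was well above background, and Popdc3 in KI livers.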
